A study of Mus musculus with 9 samples.

Results

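Peaks of the chromatin remodelers PBRM1 and BRG1 were examined at 10 genes that move calcium in smooth muscle: *Cacna1c*, *Cacna1g*, *Cacna1h*, *Cacnb2*, *Cacna2d1*, *Ryr2*, *Itpr1*, *Atp2a2*, *Atp2b4* and *Orai1*. The genes were taken by name from the 21755 protein-coding genes on the autosomes and X in GENCODE M21 (GRCm38), and every peak in a gene body or within 20 kb of either end was kept. Chromatin immunocleavage sequencing (ChIC-Seq), in which antibody-bound micrococcal nuclease cuts the DNA around its target and the released fragments are read, had been performed on WT primary oviductal muscle cells from mice aged 8 to 12 weeks on D2 (day 2) of pregnancy. Oviducts were dissociated, the cells were plated for about 6 hours in medium with serum, and 50000 formaldehyde-fixed cells entered each library. There were 3 replicate libraries for PBRM1 (BAF180, found in the PBAF remodeling complex) and 3 for BRG1 (the SWI/SNF ATPase encoded by *Smarca4*). All 6 shared the genotype, the day and the preparation and differed in the antibody. The comparison asked where each antibody gave signal and how the signals differed. How well each antibody works cannot be told apart from how much protein was bound, so a ratio of signals is not a ratio of bound protein. The 3 IgG samples of the series were not analysed here. The labels do not say whether replicates came from separate animals, so p-values measure only the spread between these libraries, which may be technical.

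The PBRM1 libraries held 18126049 to 23992352 fragments and the BRG1 libraries 14284532 to 15897724, and each list of peaks had 31970 to 39467 entries. Of the marker genes examined, 7 of 12 smooth muscle markers had a promoter peak in all 6 lists, against 0 of 10 epithelial, 1 of 6 endothelial, 0 of 6 immune, 0 of 8 cardiac or skeletal muscle and 0 of 5 neuronal markers, where the share of all protein-coding genes was 41.8%. None of the 6 replicate lists held a promoter peak for 1 smooth muscle, 6 epithelial, 2 endothelial, 6 immune, 6 cardiac or skeletal muscle and 1 neuronal markers (all genes 34.3%). The pooled lists separated the markers less, since both held a promoter peak for 11 of 12 smooth muscle, 7 of 10 epithelial, 4 of 6 endothelial, 0 of 6 immune, 2 of 8 cardiac or skeletal muscle and 4 of 5 neuronal markers. The gene lists were chosen with earlier results of these data known, so these counts do not test the identity of the cells. A peak shows signal near the antibody's target and does not measure expression. The lists were called without a control library.

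Smooth muscle contracts when calcium rises in the cytoplasm, binds calmodulin and switches on myosin light chain kinase. Calcium enters through voltage-gated channels of the plasma membrane and through store-operated channels, and it is released from the sarcoplasmic reticulum through inositol trisphosphate and ryanodine receptors. Pumps of the reticulum and of the plasma membrane then remove it. In the oviduct these cycles underlie the muscle contractions that help to move eggs and embryos.

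The sequences around the summits that recurred in every list are shown first, since the values below belong to them. Overlapping peaks of the 6 lists were merged into regions, and regions with a summit no more than 2 kb from an annotated start of the gene were called promoters. The following promoter stretches are from GRCm38.p6, 5′ to 3′ on the strand of the gene. Capitals mark each match, on either strand, to the GC box GGGCGG, a motif bound by SP family factors. The windows are the *Cacna1c* internal promoter at chr6:119109101-119109301 (minus strand), the *Cacna1g* promoter at chr11:94474334-94474534 (minus), the *Itpr1* promoter at chr6:108212928-108213095 (plus), the *Atp2b4* promoter at chr1:133801042-133801180 (minus) and the *Orai1* promoter at chr5:123014790-123014990 (plus). The *Itpr1* and *Atp2b4* windows end at the transcript start.
Cacna1c promoter: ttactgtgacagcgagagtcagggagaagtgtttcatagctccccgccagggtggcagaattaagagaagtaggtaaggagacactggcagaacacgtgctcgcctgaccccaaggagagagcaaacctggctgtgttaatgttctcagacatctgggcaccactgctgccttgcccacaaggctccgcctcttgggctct
Cacna1g promoter: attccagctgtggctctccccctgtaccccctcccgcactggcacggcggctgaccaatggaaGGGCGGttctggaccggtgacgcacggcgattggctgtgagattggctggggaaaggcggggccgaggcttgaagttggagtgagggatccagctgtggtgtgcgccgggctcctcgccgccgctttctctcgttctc
Itpr1 promoter: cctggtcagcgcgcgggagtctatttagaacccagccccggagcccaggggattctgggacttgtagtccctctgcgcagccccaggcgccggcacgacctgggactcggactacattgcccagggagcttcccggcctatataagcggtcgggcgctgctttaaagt
Atp2b4 promoter: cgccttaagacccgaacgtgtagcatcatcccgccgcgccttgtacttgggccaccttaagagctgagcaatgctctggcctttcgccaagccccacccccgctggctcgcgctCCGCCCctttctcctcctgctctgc
Orai1 promoter: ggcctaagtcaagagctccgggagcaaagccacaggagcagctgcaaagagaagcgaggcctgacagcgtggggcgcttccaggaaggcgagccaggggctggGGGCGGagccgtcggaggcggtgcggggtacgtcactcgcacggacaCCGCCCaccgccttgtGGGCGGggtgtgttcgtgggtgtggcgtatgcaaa

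Away from promoters, 4 intronic regions found in all 6 lists are shown because each was the leading non-promoter region of its gene. They lie at chr6:118983888-118984088 in *Cacna1c* (minus strand), chr2:14651288-14651488 in *Cacnb2* (plus), chr5:16047501-16047701 in *Cacna2d1* (plus) and chr1:133745158-133745358 in *Atp2b4* (minus). Capitals mark matches to the AP-1 motif TGANTCA or to the TEAD motif GGAATG, each searched on both strands. The *Atp2b4* stretch held neither.
Cacna1c intron: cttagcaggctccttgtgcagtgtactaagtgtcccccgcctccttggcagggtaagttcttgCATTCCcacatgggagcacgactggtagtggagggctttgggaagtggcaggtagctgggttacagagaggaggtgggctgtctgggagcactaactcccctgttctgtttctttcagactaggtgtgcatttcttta
Cacnb2 intron: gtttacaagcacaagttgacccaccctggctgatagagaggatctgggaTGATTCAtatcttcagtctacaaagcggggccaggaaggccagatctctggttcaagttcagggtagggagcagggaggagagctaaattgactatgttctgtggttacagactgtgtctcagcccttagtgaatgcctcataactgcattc
Cacna2d1 intron: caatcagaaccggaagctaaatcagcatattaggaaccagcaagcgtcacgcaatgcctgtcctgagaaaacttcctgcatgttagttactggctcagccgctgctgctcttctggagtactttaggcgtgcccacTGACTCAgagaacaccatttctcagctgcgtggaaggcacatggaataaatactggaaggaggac
Atp2b4 intron: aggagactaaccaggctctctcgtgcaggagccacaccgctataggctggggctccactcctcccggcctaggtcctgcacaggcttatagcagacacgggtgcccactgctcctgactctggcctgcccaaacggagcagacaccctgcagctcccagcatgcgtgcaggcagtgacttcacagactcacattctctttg

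In a window of 150 bases on each side of the summit, the GC box occurred in 4 of the 5 member promoter regions present in all 6 lists, namely those of *Cacna1c*, *Cacna1g*, *Atp2b4* and *Orai1*. It occurred in 65.5% of the 8351 such promoter regions in the genome. The *Orai1* window held 3 matches and the *Itpr1* window none, and the *Cacna1c* match lay outside the printed stretch. Of the 12 member regions elsewhere, 4 held AP-1 (*Cacna1c*, *Cacnb2*, *Cacna2d1* and *Itpr1*) and 4 held TEAD (3 in *Cacna1c* and 1 in *Cacnb2*), where the genome shares over 4477 regions were 32.0% and 25.6%. AP-1 occurred in 0 of the 5 promoters and TEAD in 1 (*Atp2b4*), against 6.33% and 11.0% of promoter regions in the genome. The CArG box, the site of serum response factor, occurred in 1 of the 17 member regions, in an *Itpr1* intron. Its genome shares were 1.40% of promoter and 2.28% of other regions. A region in a *Cacna1c* intron held the MEF2 site (genome 0.922% and 3.31%). A steroid receptor site was in 0 of the 17 (genome 0.491% and 1.01%). The median GC content of the 5 promoters was 63.5%, equal to that of the genome set, with a median of 18 CpG against 24. These matches describe the letters in the windows and do not show that a factor bound there.

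The 10 gene windows held 154 merged regions among 82949 in the genome. In each library they held 70, 60 and 65 peaks for PBRM1 and 58, 61 and 60 for BRG1. The mean was 65 ± 5 for PBRM1 and 59.7 ± 1.53 for BRG1 (SD, n = 3 each), and the ranges overlapped. By position, 25 regions were promoters, 106 intronic, 1 exonic and 22 flanking. Promoters thus made up 16.2% of the member regions, while 30.7% of the genome's regions lay at the start of some gene. A set of 10 further member regions lay at the start of a different gene. The member genes are long, with a median body of 220 kb against 17.4 kb for all protein-coding genes.

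Reproducible regions were a minority. Of the 154 regions, 17 (11.0%) had a peak in all 6 lists, with a genome share of 15.5%, and 74 (48.1%) had a peak in 1 list only, with a genome share of 47.0%. The remainder comprised 30 regions in 2 lists, 12 in 3 lists, 12 in 4 lists and 9 in 5 lists. By class, 5 of 25 promoter regions, 11 of 106 intronic regions, 1 of 22 flanking regions and 0 of 1 exonic region made up the 17. In the genome 32.8% of promoter regions and 7.78% of other regions were in all 6 lists. No region had a peak in all 3 lists of an antibody and in none of the other's (0 of 154), where the genome shares were 1.22% for PBRM1 and 0.916% for BRG1. With any 1 library left out the rule needs fewer lists and is easier to meet, and the count then lay between 2 and 8. With peaks under a −log10 q of 5 left out it was 2. Genome shares for these counts were not computed. The same stricter limit left 6 of the 17 regions, and 6505 of the 12828 regions of the genome found in all 6 lists.

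**Figure D1:**
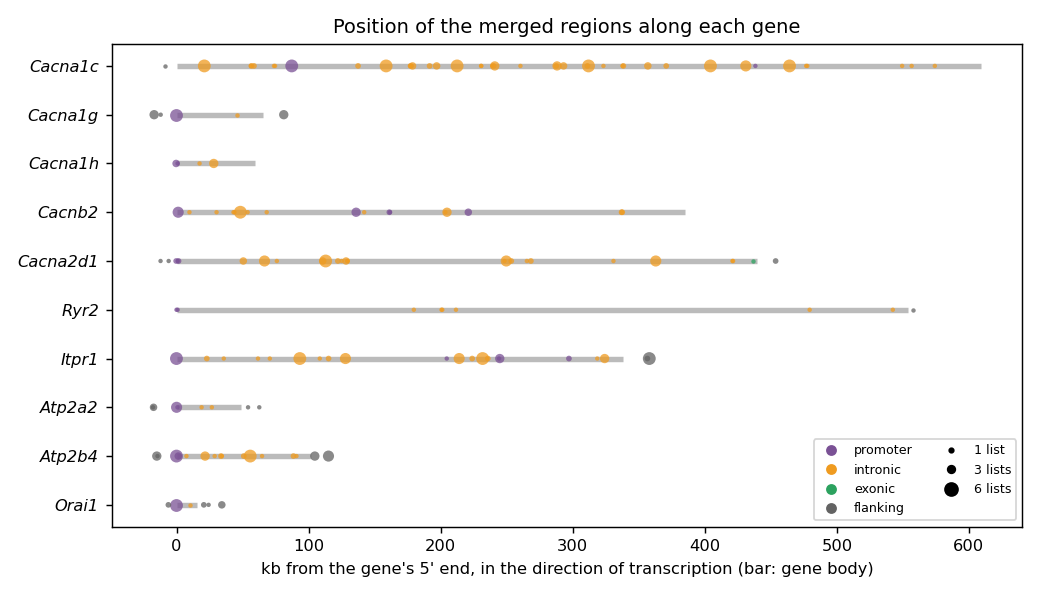
Position of the 154 merged regions along each gene, in kb from the 5′ end in the direction of transcription. Grey bars are gene bodies, colours give the class and larger points have a peak in more lists; *Cacna1c* and *Itpr1* carry large points along their introns, while the points of *Ryr2* are all of the smallest size.

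**Figure D2:**
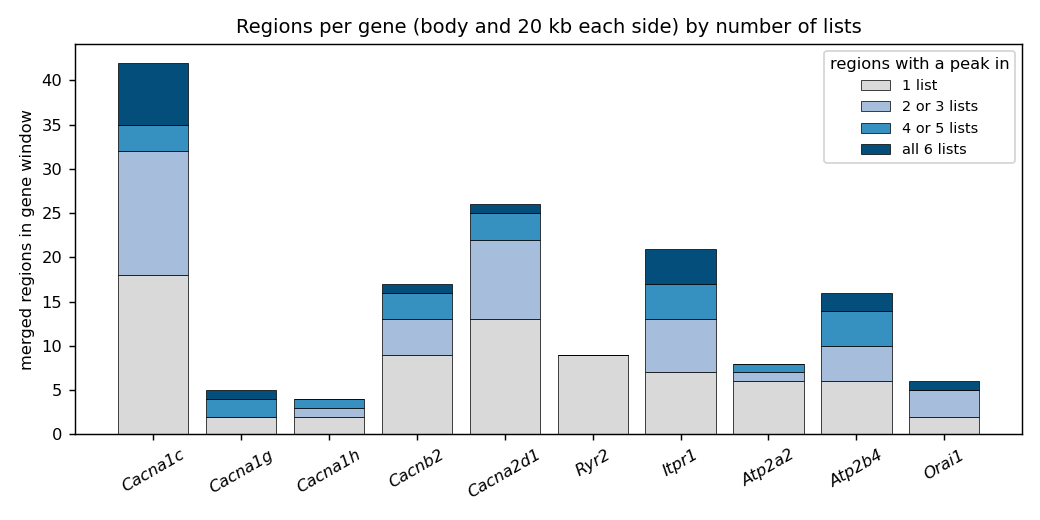
Number of merged regions in each gene window, stacked by how many of the 6 replicate lists held a peak. *Cacna1c* has 42 regions, 7 of them in all 6 lists, and the 9 regions of *Ryr2* are each in 1 list.

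Promoter peaks were found at all 10 genes in at least 2 replicate lists, so that 0 of 10 lacked one in all 6 (genome 34.3%), but the support differed. A peak near any annotated start of a gene counted, and the members had from 2 (*Orai1*) to 16 (*Cacnb2*) such starts. A gene with more starts has more chances to count, and the genome shares were not matched for this. Both antibodies marked *Cacna1c*, *Cacna1g*, *Itpr1*, *Atp2b4* and *Orai1* in every replicate, so 5 of 10 members had a promoter peak in all 6 lists, against 41.8% of protein-coding genes. With peaks under a −log10 q of 5 left out, 3 members kept this support, and the genome share at that limit was not computed. All 3 PBRM1 lists held the same 5 members (genome 44.2%). All 3 BRG1 lists held 7, adding *Cacnb2* and *Atp2a2* (genome 50.0%). The pooled PBRM1 list held 9, all but *Ryr2* (genome 66.0%), and the pooled BRG1 list held 10 (genome 67.8%). With 10 genes, 1 gene moves a member share by 10 percentage points, and the shares were not tested.

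By library, 9, 8 and 6 members had a promoter peak in PBRM1 replicates 1, 2 and 3, and 9, 8 and 9 in BRG1 replicates 1, 2 and 3. PBRM1 replicate 3, the deepest library, lacked a promoter peak at *Cacna1h*, *Cacnb2*, *Ryr2* and *Atp2a2*, although 52.2% of all protein-coding genes had one in that list, compared with 54.1% and 51.2% in PBRM1 replicates 1 and 2. The genome shares for BRG1 replicates 1, 2 and 3 were 58.2%, 55.1% and 57.3%. Without PBRM1 replicate 3, 7 members had a promoter peak in every remaining list. Requiring fewer lists can only keep or raise this count, and the genome share under the same rule was not computed.

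Among the voltage-gated channels, *Cacna1c* encodes the pore of the L-type channel, the main route of calcium entry in smooth muscle (ENSMUSG00000051331.15, chromosome 6, 118587240-119196418, minus strand). Its recurrent promoter region (119109005-119109452) was not at the 5′ end of the gene but 628 bases upstream of an internal start that lies 87.8 kb inside it, the start of a protein-coding transcript. The summit pileup, the number of fragments stacked at the summit, was scaled to 1000000 fragments in the library and is called the scaled pileup. It was 0.909, 1.10 and 0.875 in PBRM1 replicates 1, 2 and 3 and 1.32, 1.75 and 1.80 in BRG1 replicates 1, 2 and 3. All BRG1 libraries were above all PBRM1 libraries, as at 56.8% of the 12828 regions of the genome found in all 6 lists. The same genome share applies to the regions below where BRG1 lay above PBRM1 without overlap. No merged region lay within 2 kb of the 5′ end.

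*Cacna1c* also held the most regions of the 10 genes, 42 in all, of which 39 were intronic, and 7 of the 17 regions found in every list. At 6.47 regions per 100 kb it ranked 12 from the top among the 230 protein-coding genes of at least 500 kb, whose median was 1.65. The leading intronic region (118983756-118984869), 212 kb from the 5′ end, had 1.52, 1.05 and 1.21 for PBRM1 and 1.32, 1.61 and 1.53 for BRG1, and the groups overlapped. The intronic region at 119174960-119175912 lay at the start of a different gene, *Dcp1b*, and its values were 1.01, 0.883 and 0.959 for PBRM1 and 1.64, 1.61 and 1.20 for BRG1. There all BRG1 libraries were higher.

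The T-type channels, which open at more negative voltages than the L-type, differed in support. *Cacna1g* (ENSMUSG00000020866.17, chromosome 11, 94408391-94474198, minus strand) had a promoter region at 94474345-94474695, 236 bases upstream of its start. Its scaled pileup was 1.41, 1.10 and 1.29 for PBRM1 and 2.08, 2.03 and 1.60 for BRG1, with no overlap between the groups. *Cacna1h* (ENSMUSG00000024112.16, chromosome 17, 25374285-25433783, minus strand) had a promoter peak in 4 of 6 lists, split over 2 regions. The stronger, 339 bases upstream of the start, was listed at 0.717 in PBRM1 replicate 2 and at 1.01 and 1.06 in BRG1 replicates 1 and 3, and in no other list. The leading region outside the promoters was in 4 lists for each gene, 17.0 kb upstream of *Cacna1g* and in an intron of *Cacna1h*.

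For the auxiliary subunits, which set the trafficking and gating of the pore, the leading intronic region of each gene stood above its leading promoter region. It was picked as the best supported of 12 intronic regions in *Cacnb2* and 19 in *Cacna2d1*, so it does not describe the introns in general. The pattern was not particular to these subunits. By mean over the lists with a peak, the leading intronic region was also higher in *Cacna1c* (1.37 against 1.29) and *Ryr2* (0.859 against 0.665, 1 list each). At the remaining members the leading promoter region was higher. *Cacnb2* (β subunit, ENSMUSG00000057914.15, chromosome 2, 14603088-14987908, plus strand) had 5 promoter regions over its 16 annotated starts, and its leading promoter region, in 5 lists, was at 0.707 and 0.497 in PBRM1 replicates 1 and 2 and at 0.755, 0.560 and 0.732 in the BRG1 libraries. That region also lies at the start of the annotated gene *Gm10849*. Its leading intronic region (14651109-14651762, 48.3 kb from the 5′ end) reached 1.57, 0.993 and 1.17 for PBRM1 and 1.07, 0.910 and 1.20 for BRG1. The intronic values were above the promoter value in each of the 5 lists that held both, and the antibodies overlapped.

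*Cacna2d1* (α2δ subunit, ENSMUSG00000040118.15, chromosome 5, 15934691-16374511, plus strand) had 26 regions, of which 13 were in 1 list only. Its leading promoter region was listed at 0.556 in PBRM1 replicate 1 and at 0.840 in BRG1 replicate 2, and in no other replicate list. That region also lies at the start of the annotated gene *Gm3510*. An intronic region 113 kb from the 5′ end (16047117-16048021) was in all 6 lists, at 1.01, 0.662 and 0.750 for PBRM1 and 1.32, 0.980 and 0.931 for BRG1. In the authors' pooled lists this intronic region had a fold enrichment over local background of 4.97 for PBRM1 and 8.20 for BRG1, and the promoter had 3.75 and 4.13.

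The release channels of the sarcoplasmic reticulum differed in support, with a promoter peak in 6 lists for *Itpr1* and in 2 for *Ryr2*. *Itpr1* encodes the type 1 inositol trisphosphate receptor (ENSMUSG00000030102.11, chromosome 6, 108213096-108551109, plus strand). Its promoter region (108212182-108213448), 68 bases upstream of the start, had 1.77, 2.04 and 1.38 for PBRM1 and 2.77, 2.03 and 2.93 for BRG1. BRG1 replicate 2 was just below PBRM1 replicate 2, so the groups overlapped. By q-value it stood at rank 1760 of the 94612 pooled PBRM1 peaks and rank 1985 of the 96166 pooled BRG1 peaks.

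*Itpr1* held 21 regions, with 4 in all 6 lists: the promoter, 2 introns and a region downstream of the gene. The downstream region (108570332-108571173), 358 kb from the 5′ end, had 1.16, 0.717 and 0.875 for PBRM1 and 1.32, 1.82 and 1.73 for BRG1. Every BRG1 library was above every PBRM1 library there.

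*Ryr2* encodes the ryanodine receptor type known best from heart (ENSMUSG00000021313.16, chromosome 13, 11553102-12106945, minus strand). Its body spans 554 kb, and the body with 20 kb on each side held 9 regions, each in 1 list. The 2 promoter regions were at 0.665 in BRG1 replicate 3 and at 0.440 in BRG1 replicate 1, and no PBRM1 list, pooled or single, had a promoter peak. The lowest peaks of BRG1 replicates 3 and 1 were at 0.399 and 0.377, and the median peaks at 0.998 and 1.01. Both promoter regions thus lay below the median of their list, the second of them near the lowest level that was called. A signal below that level was not detectable. In the pooled BRG1 list these regions had a fold enrichment over local background of 4.53 and 5.08. At 1.52 regions per 100 kb *Ryr2* was the lowest of the 10 members, but among the 230 protein-coding genes of at least 500 kb it ranked 110 from the bottom.

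*Orai1* is the pore of the store-operated channel, opened when the reticulum is emptied (ENSMUSG00000049686.14, chromosome 5, 123015074-123030456, plus strand). Its promoter region (123014696-123015564) lay 184 bases upstream of the start and also within 2 kb of the start of the annotated gene *Gm2479*, so the signal cannot be assigned to either gene. It had 1.77, 1.49 and 1.25 for PBRM1 and 2.77, 3.01 and 2.26 for BRG1. The groups did not overlap, and the BRG1 mean of 2.68 ± 0.382 was the highest of the 10 leading promoter regions, close to the 2.57 ± 0.478 of *Itpr1* (SD, n = 3 each) with overlapping libraries.

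The pumps that clear calcium were marked at their starts. *Atp2a2* encodes SERCA2, which refills the reticulum (ENSMUSG00000029467.15, chromosome 5, 122453513-122502225, minus strand). Its promoter region was at 1.01 and 1.16 in PBRM1 replicates 1 and 2 and at 1.89, 1.61 and 1.80 in the BRG1 libraries. No peak was called there in PBRM1 replicate 3, so the antibodies were not tested, and the BRG1 values were above both PBRM1 values listed.

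*Atp2b4* encodes PMCA4, a plasma membrane calcium pump (ENSMUSG00000026463.17, chromosome 1, 133699457-133801041, minus strand). It had the highest density of regions among the members, 11.3 per 100 kb, where the median over all genes was 4.84. Its promoter region (133800656-133801484), 39 bases upstream of the start, had 1.31, 0.883 and 1.58 for PBRM1 and 2.202, 1.82 and 2.19 for BRG1, with no overlap. An intronic region 55.8 kb downstream of the start had 1.31, 1.43 and 1.25 for PBRM1 and 1.70, 1.40 and 1.60 for BRG1, with overlap.

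**Figure D3:**
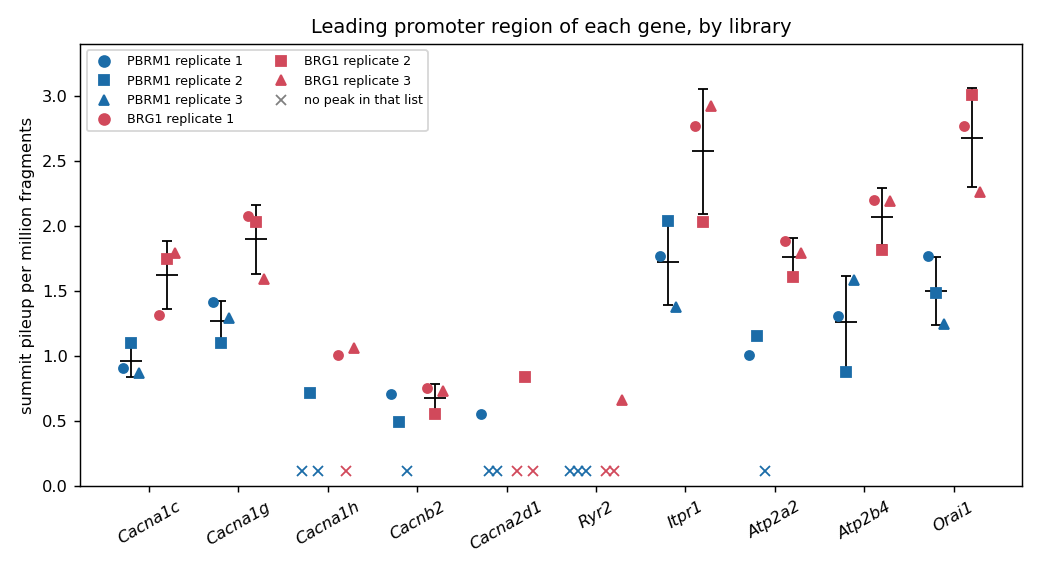
Scaled summit pileup (per 1000000 fragments) at the leading promoter region of each gene. Points are libraries (blue PBRM1, red BRG1), black bars give the mean ± SD where all 3 libraries of an antibody had a peak, and crosses near the axis mark libraries without a peak; BRG1 lies above PBRM1 without overlap at *Cacna1c*, *Cacna1g*, *Atp2b4* and *Orai1*.

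Ordered by mean BRG1 level where all 3 BRG1 lists had a peak, the leading promoters ran *Orai1* (2.68), *Itpr1* (2.57), *Atp2b4* (2.07), *Cacna1g* (1.90), *Atp2a2* (1.76), *Cacna1c* (1.62) and *Cacnb2* (0.682). Each gene's libraries overlapped those of its neighbour in this order, apart from *Cacna1c* and *Cacnb2*. For PBRM1 the order was *Itpr1* (1.73), *Orai1* (1.50), *Cacna1g* (1.27), *Atp2b4* (1.26) and *Cacna1c* (0.963), and all neighbours overlapped. The 5 member promoters present in all lists had a median of 1.59 over the libraries, close to 1.54 for the 8351 promoter regions of this kind in the genome. The 12 member regions elsewhere had a median of 1.09, where the genome had 1.11.

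The signal of the antibodies was then compared at the 17 member regions in all 6 lists, by limma on log2 scaled pileup fitted over all 12828 such regions with Benjamini-Hochberg adjustment. BRG1 passed the threshold above PBRM1 at 7 member regions (genome 53.0%), and PBRM1 above BRG1 at 0 (genome 0.413%). The 7 were the promoters of *Orai1*, *Atp2b4*, *Cacna1c*, *Cacna1g* and *Itpr1*, the region downstream of *Itpr1* and the *Cacna1c* intronic region at the *Dcp1b* start. BRG1 libraries lay above all PBRM1 libraries at 8 of the 17 (genome 56.8%), and PBRM1 libraries above all BRG1 libraries at 0 (genome 0.756%). Scaled pileup was higher for BRG1 by a median of 0.485 (log2) over all regions, so a difference of that size belongs to the whole table and not to these genes. The median of the member regions was 0.42.

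At the *Orai1* promoter region the BRG1 signal was 1.79 times the PBRM1 signal, a log2 difference of 0.84 (SE 0.186, limma adjusted p = 0.000193). *Atp2b4* differed by 0.75 (SE 0.201; adjusted p = 0.00151), *Cacna1c* by 0.75 (SE 0.212; adjusted p = 0.00264), *Cacna1g* by 0.58 (SE 0.199; adjusted p = 0.0116) and *Itpr1* by 0.58 (SE 0.186; adjusted p = 0.00752). Taken singly, each of the first 4 gave p = 0.1 and *Itpr1* p = 0.2 by a two-sided exact permutation test over the libraries, where 0.1 is the smallest p that 3 libraries against 3 allow. The call at *Cacna1g* was lost without PBRM1 replicate 2 (0.48, adjusted p = 0.0613) or BRG1 replicate 1 (0.51, adjusted p = 0.0626). The call at *Itpr1* was lost without PBRM1 replicate 3 (0.42, adjusted p = 0.0624) or BRG1 replicate 3 (0.47, adjusted p = 0.0679).

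With each library centred on the median of all regions, none of the 5 promoters passed the threshold. The centred log2 differences were 0.37 for *Orai1* (adjusted p = 0.175), 0.29 for *Atp2b4*, 0.28 for *Cacna1c*, and 0.11 for both *Cacna1g* and *Itpr1*, by limma as before. On the authors' fold enrichment 0 of the 5 promoters passed. Genome-wide, centring changed the calls from 6799 higher for BRG1 and 53 higher for PBRM1 to 314 (2.45%) and 288 (2.25%). The uncentred member promoters had a median difference of 0.75, against 0.59 for the 8351 promoter regions in the genome.

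Outside promoters the median difference was 0.32 over 12 member regions and 0.27 over 4477 in the genome, where the genome set leaves out the starts of all genes and the member set keeps the *Dcp1b* start. The downstream *Itpr1* region differed by 0.84 (SE 0.216; limma adjusted p = 0.00109; centred 0.37, adjusted p = 0.292) and the *Cacna1c* region at *Dcp1b* by 0.63 (SE 0.214; adjusted p = 0.0112; centred 0.16, adjusted p = 0.687). The latter call was lost without BRG1 replicate 1 (0.55, adjusted p = 0.0597). The *Cacnb2* intronic region went the other way, with a difference of -0.21 (SE 0.218; limma adjusted p = 0.401), and it was the 1 member region to pass after centring, at -0.68 (limma adjusted p = 0.0436; genome share of such calls 2.25%). That call held without PBRM1 replicate 2 (adjusted p = 0.0276) and was lost without any other library (-0.76 to -0.55, adjusted p from 0.0728 to 0.189). On the authors' fold enrichment, which divides by local background, the same region had 0.13 (adjusted p = 0.651), so its direction depended on the scale. An intronic region of *Cacna1c* 312 kb from the 5′ end had -0.17 (centred -0.64, adjusted p = 0.0781). It was at 1.16, 1.60 and 0.750 for PBRM1 and at 0.944, 1.19 and 0.865 for BRG1, with overlap.

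**Figure D4:**
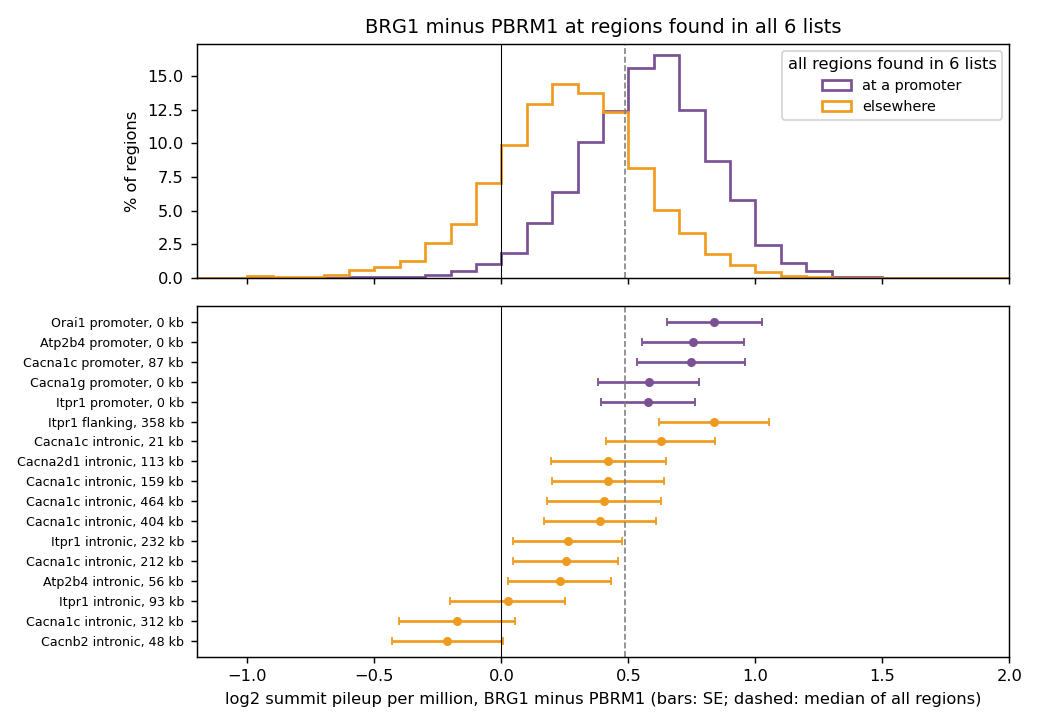
Log2 difference in scaled summit pileup, BRG1 minus PBRM1. The upper panel shows the percent of all regions found in 6 lists, at promoters and elsewhere, and the lower panel the 17 member regions with SE bars and their distance from the gene's 5′ end; the dashed line is the median of all regions (0.485), and the 5 member promoters lie from 0.58 to 0.84.

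Of 50 other genes of calcium handling, 14 (28.0%) had a promoter peak in all 6 lists, against 41.8% of protein-coding genes. The counts were 16 in all 3 PBRM1 lists (genome 44.2%) and 24 in all 3 BRG1 lists (genome 50.0%), and 9 had a promoter peak in no replicate list (genome 34.3%). The store-operated genes were well covered: *Orai2*, *Orai3*, *Stim1* and *Stim2*, the last pair being the calcium sensors that open the channel, each had a promoter peak in 6 lists, as *Orai1* did. Among the paralogs of *Itpr1*, *Itpr2* had it in 6 lists and *Itpr3* in 4. Among those of *Ryr2*, *Ryr1* had it in 0 lists and *Ryr3* in 1. Of the other α subunit genes, *Cacna1d* and *Cacna1f* had it in 5 lists and *Cacna1a* and *Cacna1b* in 3. *Cacna1i* had it in 2, *Cacna1e* in 1 and the skeletal muscle gene *Cacna1s* in 0. Of the β subunit genes, *Cacnb3* had it in 3 lists and *Cacnb1* and *Cacnb4* in 2. Of the α2δ subunit genes, *Cacna2d2* had it in 6 lists, *Cacna2d3* in 5 and *Cacna2d4* in 3. The plasma membrane pump *Atp2b1* had it in 5 lists, and *Atp2b2* and *Atp2b3* in 0. The skeletal muscle SERCA gene *Atp2a1* and the SERCA regulators *Pln* and *Sln* had it in 0, and the paralog *Atp2a3* had it in 3. Partners of the ryanodine receptor were divided, with *Fkbp1a*, *Fkbp1b* and *Asph* in 6 lists, *Casq1* in 3, and *Casq2* and *Trdn* in 0.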

How the data were processed

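Peak lists from ChIC-Seq of WT oviductal muscle cells were used, 1 for each of 3 PBRM1 and 3 BRG1 libraries and 1 for each antibody pooled by the authors. The members and gene lists were chosen with earlier results of these data known. Per the labels, the submitters' processing used cutadapt, Bowtie2 and MACS2 with GRCm38.p5; removal of duplicates and mapping quality filters are not given in the sources used here. Per the file headers, narrow peaks were called with MACS 2.2.7.1 on paired-end data without dropping duplicate fragments at that step, with a q cutoff of 0.05 and no control, against local background over 10000 bp. The deposited pileup is the coverage signal at the summit, the deposited fold enrichment is its ratio to local background, and the deposited significance is −log10 q. Without a control, open chromatin cut regardless of antibody could be called too, and the shallower BRG1 libraries make a given pileup worth more once scaled.

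Peaks sharing at least 1 bp were merged over the 6 lists, and a region's value in a list was its highest pileup per 1000000 header fragments (no pseudocount). A region without a peak in a list has no value there and was not tested. Starts came from GENCODE M21 and sequence from GRCm38.p6. limma 3.58.1 (R 4.3.3, eBayes with trend, tested on simulated data) was fitted to 12828 regions with a threshold of adjusted p 0.05. Python 3.11.15, pandas 2.3.3, scipy 1.17.1 and pysam 0.24.0 were used. Named regions were the leading promoter and non-promoter regions of each gene (most lists, then highest mean pileup), those passing limma, and those found in 3 lists of 1 antibody and 0 of the other; the *Cacna1c* region 312 kb from the 5′ end was chosen after its values were seen. Alternatives changed the scaling, the q threshold, the promoter distance (1 or 5 kb), the flank (0 or 10 kb), the joining of peaks (100 bp) and the libraries kept.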

Additional observations from a re-analysis of the deposited data

How the results depend on the processing

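Recomputing 12 results gave 123 alternative values, of which 86 were classed as the same, 20 as weaker, 15 as moved and 2 as reversed. For the difference at a single region, the same meant its direction and its side of the threshold, whatever its size. For a count the limit was loose. In all 6 lists, 12 regions with the gene body only were classed the same as the main 17. So were 7 members with promoter peaks in every list without PBRM1 replicate 3, against the main 5. For a median difference it meant a shift smaller than the SD of the PBRM1 library means over the member regions. Median centring left 1 of 17 member regions and 602 of all regions called, and turned the members' median difference to -0.046; fold enrichment left 1 (*Cacna2d1* intron, 0.61, adjusted p = 0.0293) and 1399, with a median of 0.201. Centred and fold enrichment differences were 0.28 and 0.28 for *Cacna1c*, 0.11 and 0.054 for *Cacna1g*, 0.11 and 0.20 for *Itpr1*, 0.29 and 0.25 for *Atp2b4* and 0.37 and 0.21 for *Orai1*, none past the threshold by limma. At −log10 q of at least 5, 3 of 6 member regions were called, against 4581 of 6505 in the genome. At that limit 3 members had promoter peaks in all 6 lists, 6 member regions were in all 6, and 2 were specific to an antibody. Leaving out 1 library gave differences of 0.67 to 0.89 for *Cacna1c*, 0.48 to 0.70 for *Cacna1g*, 0.42 to 0.74 for *Itpr1*, 0.52 to 0.94 for *Atp2b4* and 0.71 to 0.96 for *Orai1*. It left 5 to 8 member regions and 5027 to 6460 of all regions called. The count of antibody-specific regions was then 2 to 8, under a rule that needs 1 list fewer. The centred *Cacnb2* intron ranged from -0.845 to -0.545 (adjusted p 0.0276 to 0.189) when a library was left out, and was 0.13 by fold enrichment and -0.21 uncentred; these values were added after seeing the data.

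Same-numbered libraries of the antibodies did not deviate together (correlations 6.19e-05, 0.00349 and -0.0288), which gave no sign of pairing. Summits held few fragments, so such correlations could miss a shared preparation, and whether the numbers pair the libraries was not settled. With the replicate number as a block, 6638 regions were called in place of 6852, and the 7 member calls remained. The lists give no signal where no peak was called, so weak signal could not be measured, and the 17 tested regions rested on 11 to 44 fragments at the summit, which limits the precision.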
